A study of Saccharomyces cerevisiae with 4 samples.

Results

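The genes described here encode the membrane-bound ubiquitin ligases of endoplasmic reticulum (ER) associated degradation, ERAD, in budding yeast, together with their partners. They are 10 named genes, 8 assigned to the branch of the ligase Hrd1 (DER1, YBR201W; DFM1, YDR411C; USA1, YML029W; HRD1, YOL013C; HRD3, YLR207W; CUE1, YMR264W; UBC7, YMR022W; and UBX2, YML013W) and 2 to the branch of the ligase Doa10 (SSM4, YIL030C, the gene of Doa10 itself, and UBC6, YER100W). All 10 were found by their systematic identifiers among 6679 genes of the expression table, and all 10 passed the filter on low values described below. The rule picks the genes by name and uses no measured value, but the genes were chosen with earlier results of these data known.

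Poly(A) RNA was sequenced in 4 samples of Saccharomyces cerevisiae SK1, a strain known for efficient sporulation, to compare cells that carry high levels of spliced HAC1 mRNA from an added driver with cells that do not. Of these libraries, 2 came from cells given bEST, a compound the labels do not spell out, at 20 nM and at 40 nM, and 2 from cells given EtOH, the vehicle, in volumes matched to 20 nM and to 40 nM. All cells were labelled WT, grew vegetatively in YPD at 30 degrees and were harvested in exponential phase at an OD600 of 0.6; the labels give neither mating type nor ploidy, nor the construct that drives HAC1. Nothing in them says whether replicate libraries are independent cultures, so p-values measure the spread between these libraries, which may be technical. In each group the 2 libraries also differ in dose or matched volume, so this spread includes any effect of dose.

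ERAD recognises misfolded proteins in the ER lumen or membrane, moves them to the cytosol, tags them with ubiquitin and hands them to the proteasome. Hrd1 is a membrane RING ligase that acts with Hrd3, Usa1 and Der1 on luminal and membrane substrates. Doa10 is a separate membrane RING ligase for proteins whose lesion faces the cytosol or lies in the membrane. Both ligases take ubiquitin from the conjugating enzyme Ubc7, which Cue1 holds at the membrane, and both use Ubx2 to recruit the ATPase Cdc48, while Ubc6 works with Doa10. The protein made from spliced HAC1 mRNA is the activator of the unfolded protein response, known to induce ER folding and degradation genes.

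Values are RPKM, reads scaled to gene length and library depth. Depth, recovered from the smallest steps in the values, ranged between 1183000 reads in the 20 nM bEST library and 4161000 reads in the 40 nM bEST library, with 2133000 and 2599000 reads in the EtOH libraries. HAC1 had 5922 and 3712 RPKM with bEST (20 and 40 nM), against 487 and 528 RPKM with EtOH, and KAR2, the ER Hsp70 and a known Hac1 target, had 4194 and 3612 RPKM with bEST, against 354 and 395 RPKM with EtOH. A value per gene sums the spliced and unspliced forms of HAC1 mRNA. In the 5317 genes whose mean over the libraries was 5 RPKM or more, limma on log2(RPKM + 1) called 132 higher with bEST and 39 lower at a Benjamini-Hochberg adjusted p under 0.05. Without the 40 nM bEST library these counts were 333 and 460. The median log2 fold change of all tested genes was -0.02. Among markers of other cell states, most a-cell and alpha-cell genes were higher with bEST, and the meiotic genes were mixed. The 7 a-cell specific genes summed to 2011 and 3157 RPKM with bEST, against 791 and 425 RPKM with EtOH, and 6 were called higher. Most of each sum was MFA1, with 1558 and 2695 RPKM with bEST, against 745 and 370 RPKM with EtOH. Its call was just within the threshold (limma, adjusted p = 0.0497). The 5 alpha-cell specific genes summed to 837 and 481 RPKM with bEST, against 47.7 and 37.2 RPKM with EtOH, and 4 were called higher. The 8 meiotic genes summed to 39.1 and 35.8 RPKM with bEST, against 19.3 and 15.0 RPKM with EtOH. This difference lay mostly in HOP1 and SPS4. Of the meiotic genes 3 were tested, and 1, HOP1, was called higher. It had 13.5 and 12.2 RPKM with bEST, against 0.267 and 0.438 RPKM (1 and 2 reads) with EtOH. SPS4 had 11.5 and 9.04 RPKM with bEST, against 1.96 and 2.81 RPKM with EtOH, and no call. HOP1 and SPS4 passed the filter only through their bEST values, so the filter favoured a rise for them. The same holds for the a-cell gene STE6 and the alpha-cell gene MF(ALPHA)1, both called, and for the a-cell gene ASG7, not called. With EtOH, STE6 had 3.57 and 2.32 RPKM, MF(ALPHA)1 had 1.26 and 1.55 RPKM, and ASG7 had 4.935 and 1.35 RPKM. IME1 changed by -0.07 (adjusted p = 0.963). NDT80 was listed at 0 in the 20 nM bEST library, and SPO13 at 0 there and in the EtOH library matched to 40 nM. SPO11 was listed at 0 in the EtOH library matched to 20 nM. Their part in the values below was not tested, and in bulk RNA a change in the share of cells and a change in RNA per cell cannot be told apart.

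With bEST, the genes of Hrd1, its scaffold and both derlins rose, and the genes of the machinery shared with Doa10, and of the Doa10 branch, had no call. Of the 10 genes 4 were called higher and 0 lower, where 2.48% of all tested genes were called higher and 0.733% lower. Those called were DER1, DFM1, USA1 and HRD1. The 5 genes with the highest fold change, these and HRD3, had log2 values between 1.10 and 2.44, and the other 5 between -0.01 and 0.55. The median over the 10 genes was 0.83. Both bEST libraries lay above both EtOH libraries for 8 of the 10, the whole Hrd1 branch, where 23% of all tested genes did so.

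**Figure D1:**
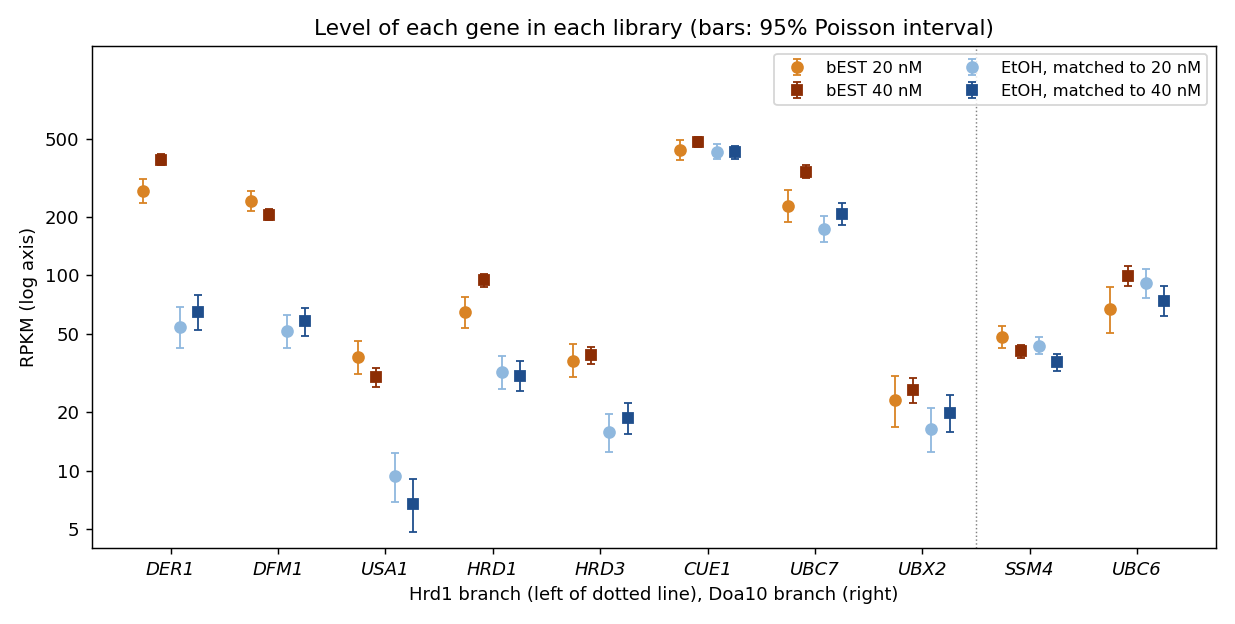
RPKM (log axis) of the 10 genes in each of the 4 libraries, with bEST libraries left of EtOH libraries for each gene and bars for the 95% Poisson interval of the recovered reads. DER1 stood at 271 and 392 RPKM with bEST, against 54.5 and 64.8 RPKM with EtOH, and the 2 groups overlapped for SSM4 and UBC6.

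DER1 encodes a derlin, a membrane protein related to rhomboid proteases without their activity, which helps luminal substrates through the membrane beside Hrd1. It had 271 RPKM (185 reads) at 20 nM and 392 RPKM (939 reads) at 40 nM of bEST, against 54.5 RPKM (67 reads) and 64.8 RPKM (97 reads) with EtOH matched to 20 nM and 40 nM. The lower bEST library was thus far above the higher EtOH library, and DER1 had the largest rise of the 10 genes. Its log2 fold change was 2.44 (SE 0.26, 95% interval 1.81 to 3.06, adjusted p = 0.00497), the 51st largest rise among 5317 tested genes. Averages were 332 ± 85.1 RPKM with bEST and 59.7 ± 7.25 RPKM with EtOH (SD, n = 2 each).

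DFM1 encodes the other derlin of yeast, which acts in the extraction of membrane substrates. It had 241 RPKM at 20 nM and 205 RPKM at 40 nM of bEST, against 51.9 and 58.1 RPKM with EtOH. Here the 20 nM bEST library was the higher one, the reverse of the order for DER1, and the groups lay well apart. The log2 fold change was 1.996 (SE 0.23, 95% interval 1.46 to 2.53, adjusted p = 0.0055). The ratio of DER1 to DFM1 was 1.13 and 1.91 with bEST, against 1.05 and 1.11 with EtOH, so the derlins stood at nearly the same level in each library except that with 40 nM bEST.

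USA1 encodes the scaffold that links Der1 to Hrd1 and joins Hrd1 molecules together. It had 38.2 RPKM (111 reads) and 30.0 RPKM (307 reads) with bEST, against 9.35 RPKM (49 reads) and 6.73 RPKM (43 reads) with EtOH. It was the lowest of the 10 genes with EtOH, in both libraries. The log2 fold change was 1.96 (SE 0.29, 95% interval 1.28 to 2.64, adjusted p = 0.0158), and without the 20 nM bEST library it was 1.79 with no call (adjusted p = 0.063).

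HRD1, the RING ligase, had 64.6 RPKM (122 reads) and 94.6 RPKM (628 reads) with bEST, against 32.0 RPKM (109 reads) and 30.6 RPKM (127 reads) with EtOH. The EtOH libraries were nearly equal and the bEST libraries differed. The log2 fold change of HRD1 was 1.29 (SE 0.26, 95% interval 0.69 to 1.90, adjusted p = 0.0478), just within the threshold. The call was lost without the EtOH library matched to 20 nM (1.32, adjusted p = 0.107), without the one matched to 40 nM (1.26, adjusted p = 0.153) and with no filter on low values (adjusted p = 0.065).

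HRD3 encodes the partner that stabilises Hrd1 and receives luminal substrates. It had 36.6 and 39.0 RPKM with bEST, against 15.7 and 18.6 RPKM with EtOH. The groups did not overlap, and the bEST libraries were close to each other. Its log2 fold change of 1.10 (SE 0.23, 95% interval 0.55 to 1.65) missed the threshold (adjusted p = 0.0568). It stayed outside it without the 20 nM bEST library (adjusted p = 0.079) and without the EtOH library matched to 20 nM (adjusted p = 0.395) or to 40 nM (adjusted p = 0.17). It was within it without the 40 nM bEST library (1.06, adjusted p = 0.047), where 6.26% of genes were called higher, and in the limma-voom fit to recovered reads (1.15, adjusted p = 0.0185), where 4.46% of genes were called higher. HRD1 and HRD3 thus had intervals that overlapped widely, although the threshold fell between them. Recovered reads of HRD3 were not whole numbers with the R64 coding length, unlike those of the other 9 genes, and are approximate.

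**Figure D2:**
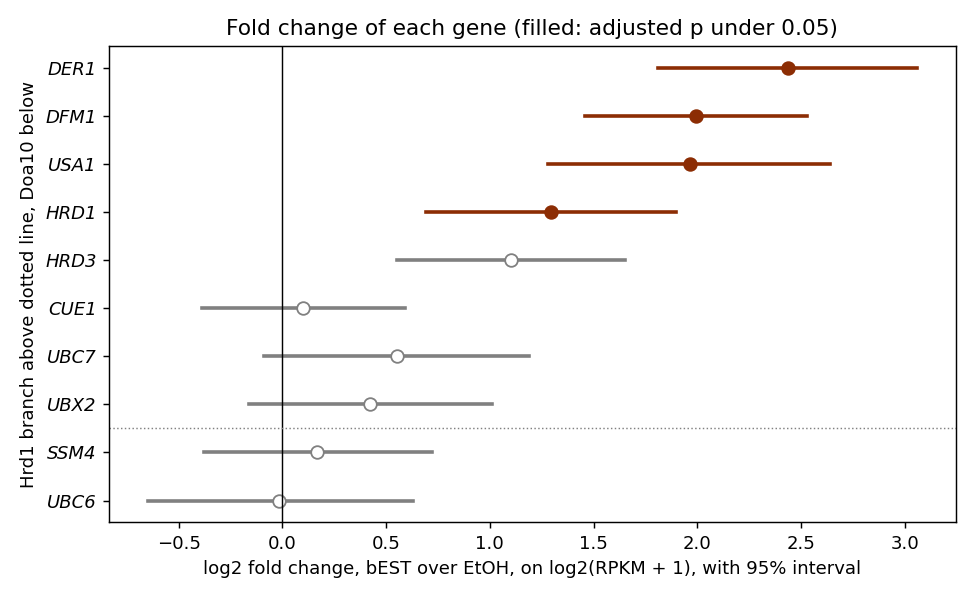
Log2 fold change of each gene, bEST over EtOH, on the log2(RPKM + 1) scale, with 95% intervals from limma and filled points for an adjusted p under 0.05. DER1 (2.44), DFM1 (1.996), USA1 (1.96) and HRD1 (1.29) are filled, HRD3 (1.10) has an interval above 0 without passing after adjustment, and the other 5 intervals include 0.

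The promoter windows of the genes that passed are printed here because they are the regions in which sites for Hac1 would be looked for; beside them stands KAR2, whose Hac1 element is well known. Each window runs from 250 bases before the first base of the coding sequence to 50 bases from it, 5′ to 3′ on the gene's strand, in the RefSeq R64 genome, which is of strain S288C and not SK1. The positions are chrII:623326-623625 (plus strand) for DER1, chrIV:1294345-1294644 (minus strand) for DFM1, chrXIII:217112-217411 (plus strand) for USA1, chrXV:302986-303285 (minus strand) for HRD1 and chrX:381077-381376 (plus strand) for KAR2. No source used here names the build behind the expression values. Capitals mark matches to CAGNGTG, the core of the unfolded protein response element, or to TACGTG, its second form, searched on both strands.
DER1: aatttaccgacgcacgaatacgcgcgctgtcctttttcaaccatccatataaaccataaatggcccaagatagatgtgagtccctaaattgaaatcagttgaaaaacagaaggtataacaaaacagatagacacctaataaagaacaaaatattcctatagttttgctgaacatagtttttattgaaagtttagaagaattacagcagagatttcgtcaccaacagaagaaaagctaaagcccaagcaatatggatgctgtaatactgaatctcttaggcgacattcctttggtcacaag
DFM1: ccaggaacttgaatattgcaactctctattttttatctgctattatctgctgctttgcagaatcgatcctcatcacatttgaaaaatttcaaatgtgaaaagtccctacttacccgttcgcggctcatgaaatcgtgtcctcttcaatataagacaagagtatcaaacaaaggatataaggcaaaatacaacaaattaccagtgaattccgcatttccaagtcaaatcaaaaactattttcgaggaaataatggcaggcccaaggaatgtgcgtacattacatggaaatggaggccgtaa
USA1: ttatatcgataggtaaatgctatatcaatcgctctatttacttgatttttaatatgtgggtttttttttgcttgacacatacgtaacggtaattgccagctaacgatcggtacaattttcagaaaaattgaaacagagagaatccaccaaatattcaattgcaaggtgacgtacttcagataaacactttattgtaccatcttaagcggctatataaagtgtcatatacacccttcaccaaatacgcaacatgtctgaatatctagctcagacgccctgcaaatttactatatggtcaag
HRD1: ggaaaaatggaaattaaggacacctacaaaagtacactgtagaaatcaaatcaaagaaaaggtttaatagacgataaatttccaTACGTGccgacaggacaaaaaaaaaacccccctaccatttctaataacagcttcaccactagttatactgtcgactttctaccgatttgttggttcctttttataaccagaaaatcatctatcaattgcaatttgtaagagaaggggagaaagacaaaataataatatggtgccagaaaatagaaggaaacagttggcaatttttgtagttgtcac
KAR2: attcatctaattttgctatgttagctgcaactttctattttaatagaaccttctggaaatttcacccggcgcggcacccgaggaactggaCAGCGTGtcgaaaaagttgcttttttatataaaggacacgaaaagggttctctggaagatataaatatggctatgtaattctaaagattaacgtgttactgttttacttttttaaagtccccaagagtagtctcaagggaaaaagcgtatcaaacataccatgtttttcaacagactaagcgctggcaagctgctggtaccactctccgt

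The HRD1 window held 1 match to TACGTG, from 166 to 161 bases before the coding sequence, and the KAR2 window held 1 match to CAGNGTG, from 160 to 154 bases before it. No other of the 10 genes had either motif in its window, so HRD1 was 1 of 10 with TACGTG and 0 of 10 had CAGNGTG. The HRD1 and KAR2 matches lie in windows on different chromosomes. Over 5957 windows of the same length in genes of the table, 5.4% held CAGNGTG and 7.8% held TACGTG. Windows of 500 bases before the coding sequence, a length chosen after the shorter windows were searched, gave the same single match among the 10 genes, where 10.2% and 13.0% of windows held the motifs. A match to letters is not a bound site, and a window without one says only that these letters are not in it.

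CUE1, UBC7 and UBX2 serve both ligases and had no call. CUE1, which anchors and activates Ubc7, was the highest of the 10 genes in every library, with 438 and 482 RPKM with bEST, against 431 and 427 RPKM with EtOH. Its log2 fold change was 0.10 (SE 0.21, 95% interval -0.39 to 0.59, adjusted p = 0.866). The groups did not overlap but nearly touched, and the interval leaves room for a change of up to 0.59 on the log2 scale.

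UBC7, the ubiquitin-conjugating enzyme of both ligases, had 228 and 341 RPKM with bEST, against 173 and 207 RPKM with EtOH. The 20 nM bEST library lay just above the higher EtOH library. The log2 fold change was 0.55 (SE 0.27, 95% interval -0.09 to 1.19, adjusted p = 0.378). UBX2, the ER receptor for Cdc48, had 22.9 RPKM (46 reads) and 25.9 RPKM (183 reads) with bEST, against 16.3 RPKM (59 reads) and 19.7 RPKM (87 reads) with EtOH. Its log2 fold change was 0.42 (SE 0.25, 95% interval -0.16 to 1.01, adjusted p = 0.471). For both genes the groups were separate by less than the spread within the wider group.

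The Doa10 branch had 0 of 2 genes called by limma, with 0 at an unadjusted p under 0.05 and 0 by limma-voom. Over all tested genes, limma called 2.48% higher and 0.733% lower, and limma-voom 4.46% higher and 1.49% lower. At an unadjusted p under 0.05 in limma there were 869 of 5317. At such shares, 0 of 2 says little about the branch. SSM4 had 48.5 and 41.0 RPKM with bEST, against 43.8 and 35.8 RPKM with EtOH. At each dose the bEST library was slightly above its EtOH match, and the groups overlapped. The log2 fold change was 0.17 (SE 0.23, 95% interval -0.38 to 0.72, adjusted p = 0.776). UBC6, the tail-anchored conjugating enzyme that works with Doa10, had 67.1 RPKM (55 reads) and 99.2 RPKM (286 reads) with bEST, against 91.3 RPKM (135 reads) and 74.4 RPKM (134 reads) with EtOH. The bEST libraries were the lowest and the highest of the 4. The log2 fold change was -0.01 (SE 0.27, 95% interval -0.65 to 0.63, adjusted p = 0.99), and its sign depended on which library was left out (-0.29 to 0.26). The upper ends of the SSM4 and UBC6 intervals, 0.72 and 0.63, lay below the lower ends for DER1 (1.81), DFM1 (1.46) and USA1 (1.28), while for HRD1, with a lower end of 0.69, the SSM4 interval overlapped and the UBC6 interval ended just short of it. Whether the branches differ was not tested.

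Each dose had 1 library per treatment, so ratios at a dose carry no test, and their 95% intervals cover counting error only. At 20 nM the log2 ratio of bEST to its matched EtOH was 2.32 for DER1 (interval 1.90 to 2.74), 2.21 for DFM1 (1.88 to 2.55), 2.03 for USA1 (1.53 to 2.55), 1.01 for HRD1 (0.63 to 1.40) and 1.22 for HRD3 (0.79 to 1.65). At 40 nM it was 2.60 for DER1 (2.29 to 2.91), 1.82 for DFM1 (1.56 to 2.08), 2.16 for USA1 (1.69 to 2.65), 1.63 for HRD1 (1.35 to 1.91) and 1.07 for HRD3 (0.77 to 1.38). The counting intervals at 20 and 40 nM overlapped for all 5 genes, and none of these 10 intervals reached 0. For UBC7 the ratio was 0.39 (0.04 to 0.74) at 20 nM and 0.72 (0.50 to 0.94) at 40 nM. UBC6 was the 1 gene of the 10 whose ratio changed sign, with -0.45 (-0.92 to 0.02) at 20 nM and 0.41 (0.11 to 0.72) at 40 nM.

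**Figure D3:**
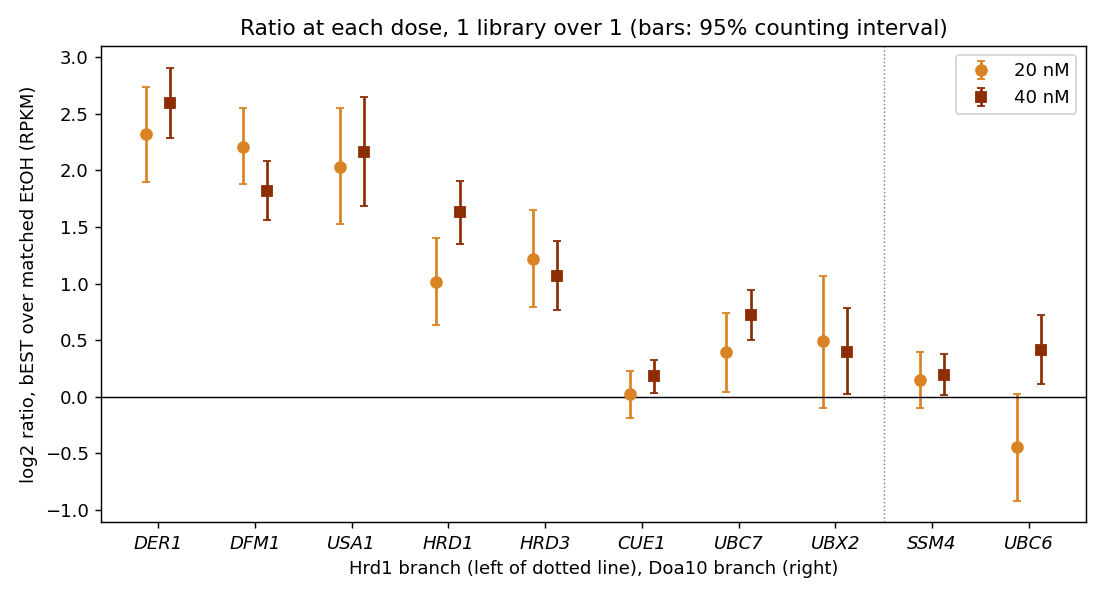
Log2 ratio of each bEST library to its volume-matched EtOH library at 20 nM and at 40 nM, with bars for the 95% counting interval and 1 library over 1 at each point. DER1, DFM1, USA1, HRD1 and HRD3 lie above 1 at both doses, and UBC6 lies at -0.45 and 0.41.

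Among bEST libraries alone, DER1, HRD1, UBC7 and UBC6 were higher at 40 nM than at 20 nM by 0.53, 0.55, 0.58 and 0.56 on the log2 scale, beyond counting error for each. For HRD1 the Poisson interval of the level ended at 77.1 RPKM at 20 nM and began at 87.3 RPKM at 40 nM. These differences were smaller than the SD of the same difference over all tested genes, 0.63. DFM1, USA1 and SSM4 were lower at 40 nM by 0.23, 0.35 and 0.24, and HRD3, CUE1 and UBX2 differed by 0.09, 0.14 and 0.18. Between the EtOH libraries the differences ran between -0.47 for USA1 and 0.28 for UBX2, with an SD of 0.43 over all tested genes.

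The order of levels within the set differed between the groups. With bEST the means ran, from high to low, CUE1 (460 RPKM), DER1 (332), UBC7 (284), DFM1 (223), UBC6 (83.1), HRD1 (79.6), SSM4 (44.8), HRD3 (37.8), USA1 (34.1) and UBX2 (24.4). Libraries of neighbours in this order overlapped for DER1 and UBC7, UBC7 and DFM1, UBC6 and HRD1, and HRD3 and USA1. With EtOH the order was CUE1 (429 RPKM), UBC7 (190), UBC6 (82.9), DER1 (59.7), DFM1 (55.0), SSM4 (39.8), HRD1 (31.3), UBX2 (18.0), HRD3 (17.2) and USA1 (8.04), and DER1 overlapped DFM1 as UBX2 did HRD3. DER1 stood above UBC6 in both bEST libraries and below it in both EtOH libraries, and HRD1 stood above SSM4 in both bEST libraries and below it in both EtOH libraries.

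Ratios of levels between the genes do not depend on how a library was scaled. CUE1 mRNA was 6.78 and 5.10 times HRD1 mRNA with bEST, against 13.5 and 14.0 times with EtOH. SSM4 was 0.751 and 0.433 times HRD1 with bEST, against 1.37 and 1.17 times with EtOH. DER1 was 4.20 and 4.14 times HRD1 with bEST, against 1.70 and 2.12 times with EtOH, while HRD3 was 0.567 and 0.413 times HRD1 with bEST, against 0.491 and 0.607 times with EtOH. So DER1 gained on HRD1, CUE1 and SSM4 lost on it, and the HRD3 to HRD1 ratio overlapped between groups. DER1, DFM1, USA1, HRD1 and HRD3 together had 652 and 761 RPKM with bEST, against 164 and 179 RPKM with EtOH. CUE1, UBC7 and UBX2 together had 689 and 849 RPKM with bEST, against 621 and 654 RPKM with EtOH, and SSM4 and UBC6 together had 116 and 140 RPKM with bEST, against 135 and 110 RPKM with EtOH.

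In the other pathway lists examined here, which do not hold KAR2, no gene was called. Of 29 genes in 6 further lists, limma called 0 and limma-voom called 0. Over all tested genes, limma called 2.48% higher and 0.733% lower, and limma-voom 4.46% higher and 1.49% lower. With shares this low, 0 of 29 says little about these genes. At an unadjusted p under 0.05 in limma, 5 of the 29 were higher, a larger share than the 9.07% of all tested genes. Their median log2 fold change was 0.23, beside -0.02 over all tested genes.

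The list of Cdc48, the ATPase that pulls substrates out of the membrane, its cofactors and the factors that deliver substrates to the proteasome had 11 genes, of which 10 had a positive value (median 0.24). NPL4, a cofactor of Cdc48, had 50.2 and 51.0 RPKM with bEST, against 32.3 and 28.8 RPKM with EtOH (log2 fold change 0.71, SE 0.22, adjusted p = 0.155). UFD1, its partner, had 71.7 and 118 RPKM with bEST, against 55.3 and 58.9 RPKM with EtOH (0.68, SE 0.29, adjusted p = 0.303). CDC48 itself had 501 and 513 RPKM with bEST, against 348 and 288 RPKM with EtOH (0.68, SE 0.22, adjusted p = 0.18). NPL4, UFD1 and CDC48 had separate groups without passing the threshold. Of the 11 genes 7 had both bEST libraries above both EtOH libraries, a larger share than the 23% of all tested genes. Only 1, OTU1, had both below, as did 1272 of the 5317 tested genes. That rests on 29.54 RPKM with 40 nM bEST, against 29.56 RPKM in the matched EtOH library.

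Upstream of the ligases, the lectin and mannosidase list of 3 genes had a median of 0.11. HTM1, a mannosidase that marks glycoproteins for degradation, had 23.9 and 20.8 RPKM with bEST, against 14.7 and 21.1 RPKM with EtOH (0.32, SE 0.28, adjusted p = 0.635). MNS1, which trims a mannose from glycans in the ER, had 27.1 and 20.6 RPKM with bEST, against 33.3 and 30.5 RPKM with EtOH (-0.42, SE 0.24, adjusted p = 0.471). The groups overlapped for HTM1, and those of MNS1 were separate.

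Among 5 genes of ubiquitin, its activating enzyme and other conjugating enzymes the median was 0.30. UBC4 had 1518 and 1700 RPKM with bEST, against 1093 and 1064 RPKM with EtOH (0.57, SE 0.19, adjusted p = 0.195). UBC5, a close paralog of UBC4, had 6.55 RPKM (3 reads) and 42.9 RPKM (69 reads) with bEST, against 46.0 RPKM (38 reads) and 30.8 RPKM (31 reads) with EtOH (-1.09, SE 0.73, adjusted p = 0.532). The UBC5 value rests on the 20 nM bEST library: without it the value was 0.18, and without the 40 nM bEST library it was -2.36. How the authors' counting assigned reads that paralogs share is not stated in the sources used here.

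Other membrane ligases showed no call either. The Asi ligase, which does similar work at the inner nuclear membrane, had 3 genes with a median of 0.21; ASI3 and ASI2 changed by 0.27 (SE 0.24, adjusted p = 0.642) and 0.21 (SE 0.25, adjusted p = 0.749). The Dsc ligase of Golgi and endosomes had 4 genes with a median of 0.21. TUL1, its RING subunit, had 19.8 and 14.2 RPKM with bEST, against 10.2 and 8.16 RPKM with EtOH (0.82, SE 0.31, adjusted p = 0.259), and DSC3 changed by 0.25 (SE 0.27, adjusted p = 0.714). TUL1 had the largest positive value of the 29 genes, with separate groups and no call.

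Natural substrates of the ligases, 3 genes, had a median of -0.15. HMG2, the HMG-CoA reductase isozyme degraded through Hrd1, had 40.9 and 25.6 RPKM with bEST, against 24.2 and 22.9 RPKM with EtOH (0.44, SE 0.28, adjusted p = 0.509). SBH2, a translocon subunit degraded through Doa10 when unassembled, had 1494 and 2332 RPKM with bEST, against 2799 and 2702 RPKM with EtOH (-0.56, SE 0.25, adjusted p = 0.326). Without the 40 nM bEST library the SBH2 value was -0.88. Its groups were separate, with the 20 nM bEST library the lowest.

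**Figure D4:**
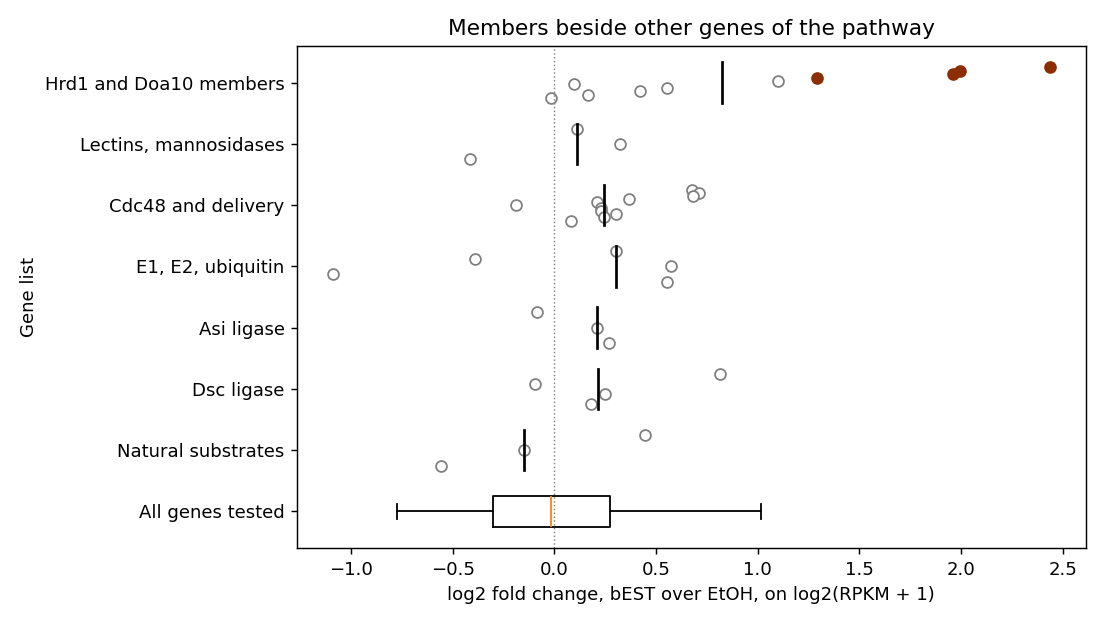
Log2 fold change, bEST over EtOH, of the 10 genes (top) and of 6 other lists of the pathway, 1 point per gene, with a bar at each list's median, filled points for an adjusted p under 0.05 and a box for all 5317 tested genes (quartiles, whiskers at the 5th and 95th percentiles, -0.77 and 1.02). All filled points belong to the top row, whose median is 0.83.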

How the data were processed

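Directional poly(A) RNA libraries were read as single ends of 50 bases, per the labels' protocols. The authors deposited 1 normalised value per gene and library, taken here as RPKM: the header names no unit, but low values times the R64 coding length less 60 bases mostly fell on multiples of 1 amount per library. Between 92.7% and 93.7% of values of at most 50 reads came out whole to within 0.05 reads. Those steps gave the depth, the reads per gene and the 95% Poisson intervals, which cover counting error only, since reads carry no molecular identifiers. STAR and SAMtools were used, per the submitters' processing notes; how reads were counted, the build and any filter are not stated in the sources used here. Of the 6679 identifiers, 5994 matched R64 locus tags. R64 lists 0 genes that overlap any of the 10 genes, and none of their windows of 50 bases recurs elsewhere in that genome.

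The main test was limma 3.58.1 in R 4.3.3, with a variance trend and no covariate, on log2(RPKM + 1), bEST minus EtOH, in genes averaging 5 RPKM or more. It was two-sided, with Benjamini-Hochberg adjustment over all genes tested, and was tested on simulated data. A fold change on this scale understates the change of low genes, and any effect of dose counts as spread. Members, gene lists and tests were chosen with earlier results of these data known. All 10 genes are described, with HAC1 and KAR2, and of each other list the genes past the threshold or, where none passed, the 2 with the largest change. HOP1, SPS4, IME1, MFA1, STE6, ASG7, MF(ALPHA)1, CDC48, OTU1, RRP17, MAC1 and PRS2 lie outside this rule and were chosen after values were seen. So were the genes of the other lists named only for changing side between doses. Alternatives were pseudocounts of 0.1 and 5, no filter, a mean of at least 20 RPKM, median scaling, leaving out each library, dose as a block, and limma-voom on recovered reads. A comparison of protein sequences was not made.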

Additional observations from a re-analysis of the deposited data

Results flagged for a closer look

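For UBC6, HTM1, DSC3, UBC5 and RRP17, the bEST library lay on opposite sides of its matched EtOH library at 20 nM and at 40 nM. These were flagged among the described genes and the neighbours only. Of the other listed pathway genes, PNG1, DDI1, VMS1, UBC1, UBI4, ASI1, DSC2, UBX3 and ERG1 also changed side. UBC1 stood at -0.97 (counting interval -1.21 to -0.74) and 0.19 (0.05 to 0.33). ERG1 stood at -0.45 (-0.59 to -0.31) and 0.15 (0.06 to 0.24), and UBI4 at -0.29 and 1.41. Marker genes were not examined for this. Each side has 1 library per treatment, so this difference between doses was not tested. The log2 ratio of UBC6 was -0.45 at 20 nM and 0.41 at 40 nM. HTM1 stood at 0.70 and -0.02, the second of which is 0.986-fold and within counting error (-0.35 to 0.31). DSC3 stood at -0.06 and 0.58, with counting intervals that include 0 at both doses. UBC5 stood at -2.81 (counting interval -5.15 to -1.16, from 3 reads in the 20 nM bEST library) and 0.48 (-0.16 to 1.14). RRP17, the neighbour of DFM1 on the other strand, stood at -0.29 and 0.24.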

How the results depend on the processing

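Over 12 alternatives each, the 10 genes gave 120 fold changes, of which 109 kept sign and side of the threshold. DER1 and DFM1 were called under all 12, USA1 under 11 and HRD1 under 9; the 8 changes of side are those of USA1, HRD1 and HRD3. The count of the 10 genes called was 3 to 5 with any 1 library left out, where a lone library is assumed to vary like the other group. With any 1 library left out UBC6 ran from -0.29 to 0.26 and UBC5 from -2.36 to 0.18. UBC6 reversed to 0.26 without the 20 nM bEST library, 0.13 without the EtOH library matched to 20 nM and 0.05 with limma-voom, and UBC5 to 0.18 without the 20 nM bEST library.

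Over all genes, counts called higher ran 113 to 333 and lower 32 to 460 with any 1 library left out, the upper ends without the 40 nM bEST library, where 2 of the 29 other pathway genes were called (range 0 to 2). Median scaling gave 66 lower and limma-voom 231 higher and 77 lower; the cause was not tested. Doses are matched by volume and no label says that a dose marks a shared batch; deviations of same-dose libraries correlated at -0.205 over 5317 genes. With dose as a replicate block, 243 genes were called higher and 123 lower, 5 of the 10 genes (HRD3 added, adjusted p = 0.0149) and 1 of the 29. With the pairing crossed, chosen after seeing the data, these counts were 363, 305, 5 and 2. Among the 10 genes, UBX2 and USA1 had under 50 reads in at least 1 library; UBC5 had 3 and DSC3 16 in the 20 nM bEST library.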

Other observations

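DFM1, UBC7 and UBC6 each share their upstream region with a gene on the other strand, by position in R64, and these neighbours were looked up after the values of the 10 genes were known. RRP17, which starts 298 bases from DFM1, had 124 and 178 RPKM with bEST, against 151 and 151 RPKM with EtOH (log2 fold change -0.02, SE 0.25, adjusted p = 0.978), beside 1.996 for DFM1. MAC1, a copper-responsive transcription factor 261 bases from UBC7, changed by -0.20 (SE 0.21, adjusted p = 0.705), and PRS2, 500 bases from UBC6, by -0.32 (SE 0.26, adjusted p = 0.62).

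CUE1 alone made up 30.1% and 27.6% of the summed RPKM of the 10 genes with bEST, against 46.9% and 45.3% with EtOH. DER1 made up 18.6% and 22.4% with bEST, against 5.9% and 6.9% with EtOH. Ranked by level among all tested genes, DER1 lay at percentiles 87.3 and 89.4 with bEST, against 54.3 and 60.03 with EtOH, and USA1 at 46.7 and 36.8 with bEST, against 9.2 and 5.9 with EtOH. CUE1 lay between 90.6 and 91.6 in the 4 libraries.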
